A study of Homo sapiens with 24 samples.

Results

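The miR-92b and miR-32 hairpins give 4 mature miRNAs, hsa-miR-92b-3p, hsa-miR-92b-5p, hsa-miR-32-5p and hsa-miR-32-3p (written without the species prefix from here on), and these 4 of the 2656 mature miRNAs in the table are described here across 6 groups of ovarian cancer cells. They were picked by name, as both arms of both hairpins, at a time when earlier results from the same libraries were known. The miR-seq libraries came from OV90, an established epithelial ovarian cancer line, with 4 libraries in each group. The cells carried a doxycycline-inducible shRNA against RELA (shRELA), against RELB (shRELB) or a negative control (shNeg, whose genotype label is wild type), and every group, shNeg included, received doxycycline at 1 µg/ml for 72 h. Each of these was grown adherent in serum-containing RPMI or as spheroids on ultra-low attachment plates in a defined DMEM-F12 medium with EGF and FGF, so attachment, medium and serum cannot be told apart. Nothing states that replicates were separate cultures, and p-values therefore measure the spread between these libraries, which may be technical. RELA and RELB mRNA are not read by miR-seq, so the knockdown itself was not checked in these libraries. All libraries had doxycycline and each target had its own shRNA cells, so silencing cannot be told apart from other differences between these cells. Below, RELA or RELB silenced names the shRNA that the cells carried.

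A microRNA hairpin is cut by Dicer into a short duplex, and either strand of it, the 5p or the 3p arm, can be loaded into Argonaute, while the other strand is usually lost. The loaded arm finds its targets mostly through its seed, bases 2 to 8, so that miRNAs with a common seed share many predicted targets. Each of the hairpins gives an arm with the seed of miR-92a, a member of the oncogenic miR-17-92 cluster, and of miR-25, miR-363 and miR-367. RELA and RELB are NF-κB transcription factors, RELA acting mainly in the canonical and RELB in the non-canonical branch.

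The mature sequences, from RefSeq with positions on GRCh38.p14, are shown because the arms of a hairpin carry different seeds and differ in base composition. The capitals mark the seed. The following 6 carry the same seed, and the members among them are miR-92b-3p and miR-32-5p.
miR-92b-3p: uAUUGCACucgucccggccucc
miR-32-5p: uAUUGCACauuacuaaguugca
miR-92a-3p: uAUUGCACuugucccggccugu
miR-25-3p: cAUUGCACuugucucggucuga
miR-363-3p: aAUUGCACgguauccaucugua
miR-367-3p: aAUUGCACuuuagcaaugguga
Their partner arms, which each had a seed found in no other of the 2367 table entries matched to a RefSeq sequence, are the following.
miR-92b-5p: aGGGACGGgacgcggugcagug
miR-32-3p: cAAUUUAGugugugugauauuu
The family arm is thus the 3p arm of miR-92b but the 5p arm of miR-32. Outside the seed the pair differs widely, as miR-32-5p matched miR-92b-3p at 11 of 22 bases. In contrast, miR-92a-3p matched miR-92b-3p at 19 of 22, with the substitutions U10C, G21C and U22C (miR-92a-3p base first, positions counted from the 5′ end). The hairpins also lie at opposite ends in base composition: G and C made up 72.7% of miR-92b-5p and 63.6% of miR-92b-3p, against 31.8% of miR-32-5p and 27.3% of miR-32-3p.

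MIR92B lies on the plus strand of chromosome 1 at 155195177 to 155195272, inside exons of the lncRNA THBS3-AS1 on the same strand. Within it miR-92b-5p occupies 155195196 to 155195217 and miR-92b-3p 155195237 to 155195258. MIR32 lies on the minus strand of chromosome 9 at 109046229 to 109046298, in an intron of the protein-coding gene TMEM245, which is transcribed in the same direction. Its arms occupy 109046272 to 109046293 for miR-32-5p and 109046231 to 109046252 for miR-32-3p.

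Adherent libraries held 3797175 to 8283549 counts and spheroid libraries 959141 to 3580931, so that 3 counts corresponded to 0.495 to 0.80 CPM (counts scaled to a common library size, here after TMM scaling) in adherent and 0.860 to 2.29 CPM in spheroid libraries. Spheroid shNeg replicate 1 stood apart: only 432 miRNAs had a count there, and its 3 fellow spheroid shNeg libraries detected 813 to 885. All 6 of the epithelial marker miRNAs reached 1 CPM in 4 or more libraries. Their summed level, per library total without TMM, was 2296 to 10466 CPM in adherent and 3599 to 16651 CPM in spheroid libraries. Of the blood markers 4 of 6 reached that level (summed over all 6, 17.4 to 48.6 CPM in adherent, 65.1 to 810 CPM in spheroid libraries). Of the muscle markers 2 of 3 did (summed over all 3, 0 to 4.75 and 0 to 8.05 CPM). None of the blood or muscle markers was without counts in every library. The hepatocyte marker miR-122-5p stood at 13681 to 26694 CPM in all cultures, and the endothelial marker miR-126-3p at 1983 to 6771 CPM in adherent and 549 to 1597 CPM in spheroid libraries. The part of these markers in the results was not tested.

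All member levels below are CPM with TMM-scaled library sizes, fold changes and their standard errors are from edgeR's quasi-likelihood test over the 905 miRNAs tested, and a miRNA was called when its false discovery rate (FDR) over all of them was under 0.01 and it changed more than 2-fold. All 4 members were among the 905. The comparisons with shNeg share the shNeg libraries of their culture, and those libraries also enter the comparison of cultures.

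Within adherent culture, the clearest pattern at the miR-92b hairpin was the higher level of both arms with RELB silenced. Over all 6 groups, adherent shRELB was the highest for miR-92b-3p only. The mean of miR-92b-5p was 59.6 CPM there, against 203 CPM in spheroid shNeg and 219 CPM in spheroid shRELB. The level of miR-92b-3p, the family arm, was 184, 197, 213 and 224 CPM in the adherent shNeg libraries and 826, 984, 790.1 and 854 CPM in the adherent shRELB libraries. The lowest shRELB library was therefore far above the highest shNeg library, in a comparison in which the groups of 33.1% of all miRNAs did not overlap. In adherent shRELA cells miR-92b-3p stood at 185, 206, 179.6 and 205 CPM, inside the shNeg range for all but the lowest library. In adherent shRELB cells miR-92b-3p was 4.22-fold higher than in adherent shNeg cells (log2 fold change 2.08, SE 0.17, FDR 1.40e-11). With RELA silenced the log2 fold change was −0.08 (SE 0.16, 95% interval −0.40 to 0.24, FDR 0.842).

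The partner arm miR-92b-5p was scarcer but moved alike in adherent cells. It was measured at 9.62, 6.40, 12.2 and 11.2 CPM in adherent shNeg, at 11.9, 13.7, 14.7 and 9.93 CPM in adherent shRELA and at 47.7, 65.2, 60.3 and 65.0 CPM in adherent shRELB libraries. The shNeg and shRELA libraries overlapped, and all 4 shRELB libraries lay above both. Against shNeg, the groups of 33.1% of all miRNAs did not overlap. It rose 5.98-fold with RELB silenced (log2 fold change 2.58, SE 0.40, FDR 8.06e-06) and had a log2 fold change of 0.34 (SE 0.39, FDR 0.704) with RELA silenced. Thus 2 of the 4 members were called higher with RELB silenced in adherent cells, where 3.54% of all miRNAs tested were called higher and 7.07% in either direction. With RELA silenced, edgeR called 0 of the 4 members, 0 had an unadjusted p under 0.05, and DESeq2 and limma also called 0, against 3.76% of all miRNAs called. A direct comparison of adherent shRELB with adherent shRELA libraries gave log2 fold changes of 2.15 (SE 0.17, FDR 7.30e-12) for miR-92b-3p and 2.24 (SE 0.39, FDR 3.78e-05) for miR-92b-5p, which were the 2 members called there, against 10.8% of all miRNAs (6.63% higher).

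**Figure D1:**
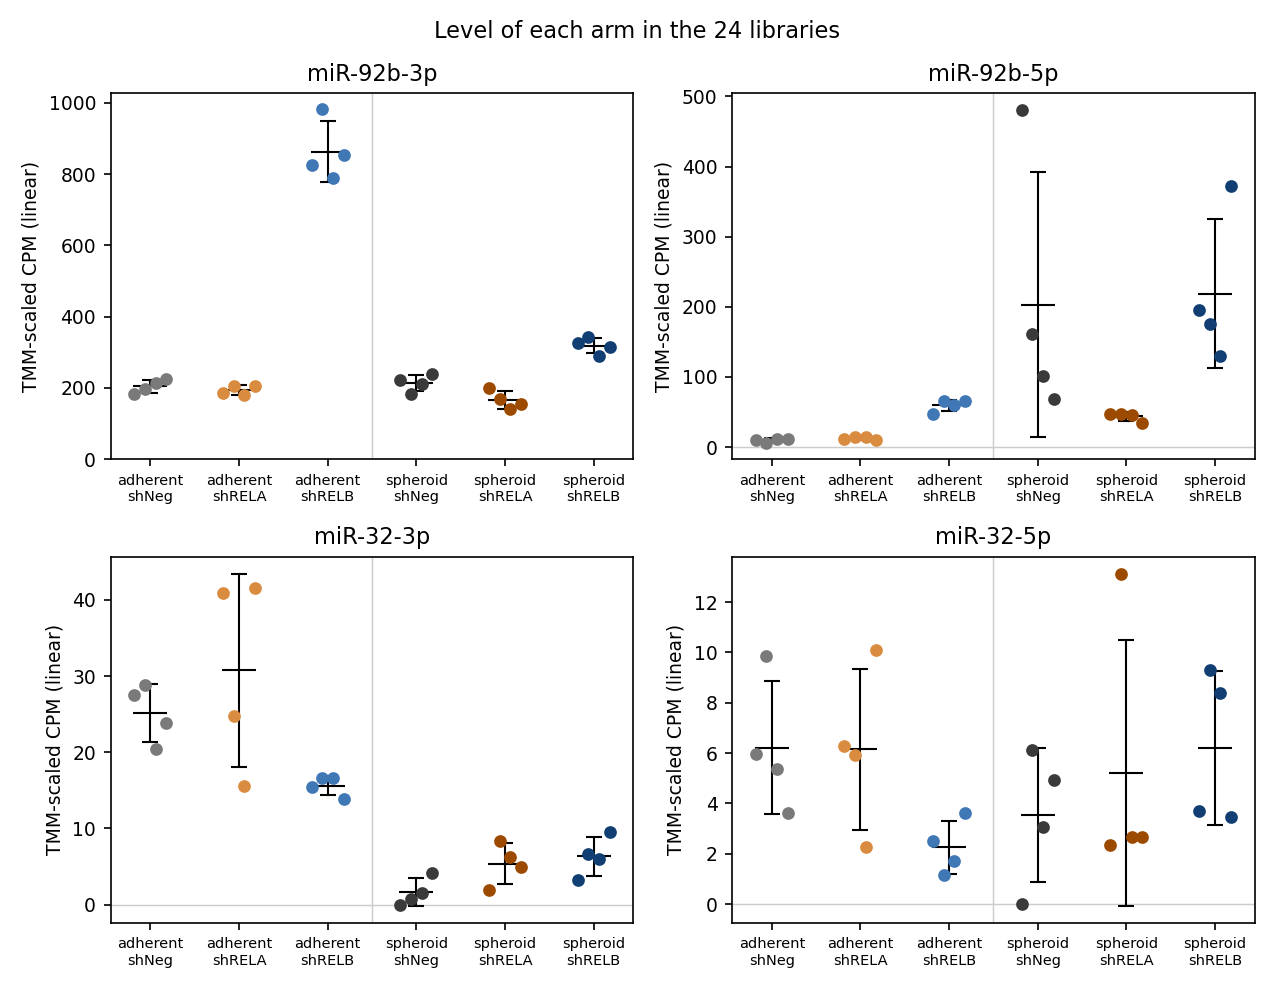
TMM-scaled CPM (vertical axis, linear, a scale of its own in each panel) of each arm in the 24 libraries by group. Points are libraries, and the horizontal line and bars are the mean and SD of 4 libraries; miR-92b-3p stands at 790.1 CPM or more in all adherent shRELB libraries and at 342 CPM or less in every other group.

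In spheroids the same comparison gave a smaller change of miR-92b-3p. Its level was 224, 184, 209.8 and 238 CPM in spheroid shNeg, 199, 169, 141 and 155 CPM in spheroid shRELA and 326, 342, 291 and 315 CPM in spheroid shRELB libraries. The shRELB libraries all lay above the shNeg libraries, and the shRELA libraries overlapped the shNeg ones at the lower end. With RELB silenced the log2 fold change was 0.57 (SE 0.17, FDR 0.00898), a 1.49-fold difference that passed the FDR threshold but not the fold threshold, and 17.3% of all miRNAs tested had groups that did not overlap in this comparison. With RELA silenced it was −0.37 (SE 0.17, FDR 0.0975). Between spheroid shRELB and spheroid shRELA libraries miR-92b-3p differed by a log2 fold change of 0.94 (SE 0.17, FDR 7.44e-05), also under 2-fold.

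The change with RELB silenced differed between the cultures for miR-92b-3p: the interaction, the log2 fold change in spheroids minus that in adherent cells, was −1.50 (SE 0.23, FDR 2.73e-05). For RELA the interaction was −0.29 (SE 0.23, FDR 0.434). Ordered by mean, miR-92b-3p was highest in adherent shRELB (863 ± 84.5 CPM, SD, n = 4) and then in spheroid shRELB (319 ± 21.3 CPM). The other 4 groups followed with means of 214 ± 23.0 in spheroid shNeg, 205 ± 17.5 in adherent shNeg, 194 ± 13.5 in adherent shRELA and 166 ± 25.1 CPM in spheroid shRELA, and neighbours among these 4 overlapped.

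In spheroids miR-92b-5p varied widely among the shNeg libraries. The spheroid shNeg libraries held 480.4, 161, 101 and 68.8 CPM of it, with the highest value in replicate 1, the library with few miRNAs detected. Spheroid shRELA libraries held 47.8, 47.8, 45.6 and 34.6 CPM, all under the lowest shNeg library, as the groups of 22.5% of all miRNAs did not overlap here, and spheroid shRELB libraries held 196, 176, 129.7 and 373 CPM, within the shNeg range. With RELA silenced miR-92b-5p fell 4.61-fold (log2 fold change −2.20, SE 0.38, FDR 3.75e-05), and without shNeg replicate 1 the log2 fold change was −1.33 and still called. It was the only 1 of the 4 members called in that comparison, where 7.62% of all miRNAs were called lower and 15.1% in either direction.

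With RELB silenced in spheroids the log2 fold change of miR-92b-5p was 0.11 (SE 0.36, 95% interval −0.59 to 0.82, FDR 0.855). Leaving out shNeg replicate 1 gave 0.9965, just under 2-fold, with an FDR of 0.00302. In this comparison edgeR called 0 of the 4 members, 2 had an unadjusted p under 0.05, and DESeq2 and limma each called 1, miR-32-3p, against 13.4% of all miRNAs called by edgeR. Spheroid shRELB exceeded spheroid shRELA libraries by a log2 fold change of 2.32 for miR-92b-5p (SE 0.38, FDR 3.10e-05), the 1 member called there, against 6.63% of all miRNAs (3.87% higher). Spheroid shNeg replicate 1 is in neither group of this comparison, but shares its filter, scaling and estimate of the spread. Without it the calls over all miRNAs went from 60 of 905 to 98 of 900 tested.

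The changes of miR-92b-5p with knockdown also differed between the cultures, with an interaction (spheroid minus adherent, log2 scale) of −2.54 for RELA (SE 0.55, FDR 0.00135) and of −2.47 for RELB (SE 0.53, FDR 0.00118). Without spheroid shNeg replicate 1 these interactions were −1.65 and −1.57. The RELA interaction was called for 1 of 4 members, this one, against 7.62% of all miRNAs (3.31% in the same direction). That of RELB was called for 3 of 4 members, of which 2 were negative and 1 positive, against 8.51% of all miRNAs (3.87% negative and 4.64% positive). Of these, that of miR-92b-5p was not called when only the compared groups were fitted (−2.45, FDR 0.0125), nor that of miR-32-3p when libraries were scaled by their totals (2.25, FDR 0.0172).

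**Figure D2:**
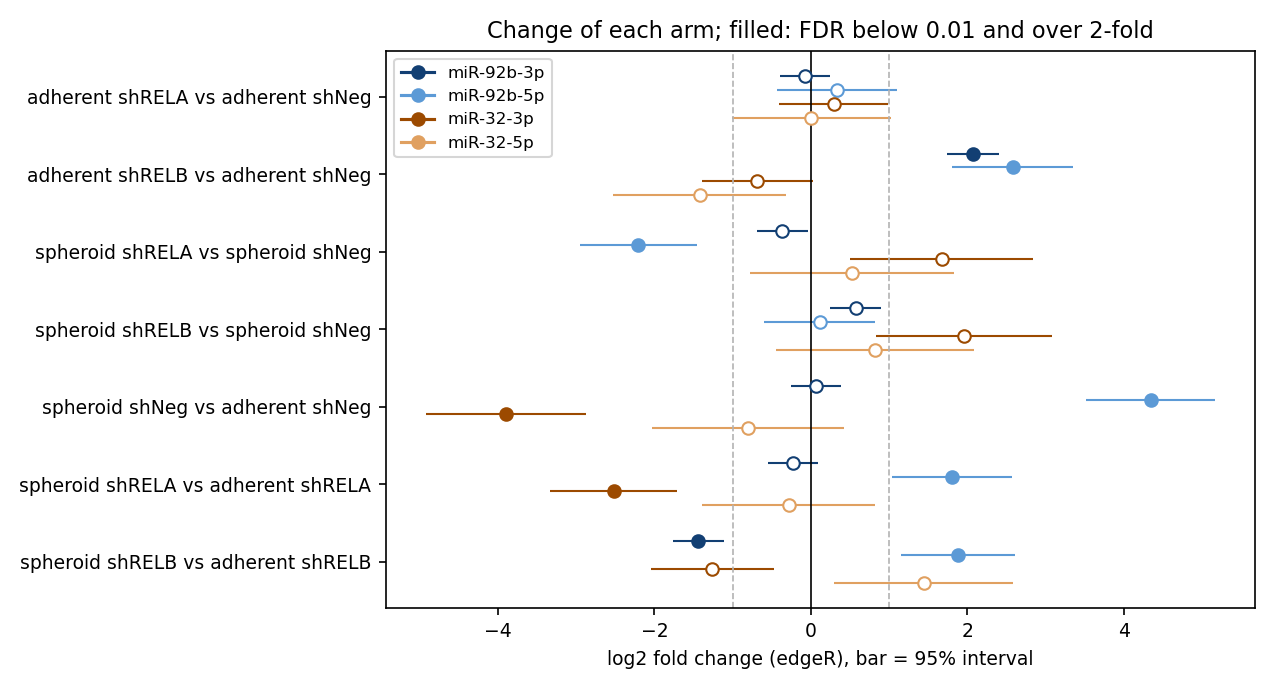
Log2 fold change (horizontal axis, edgeR) of each arm in 7 comparisons, with bars of 95% intervals and dashed lines at a 2-fold change; filled points passed an FDR of 0.01 and the 2-fold threshold. Both miR-92b arms are filled to the right for adherent shRELB, and miR-92b-5p and miR-32-3p are filled on opposite sides for spheroid against adherent culture in shNeg and shRELA cells.

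Between the cultures the partner arms moved in opposite directions. In shNeg cells miR-92b-5p was higher in spheroids 20.3-fold (log2 fold change 4.34, SE 0.42, FDR 1.24e-10; 3.46 without spheroid shNeg replicate 1), and the 2 groups did not overlap, as for 47.5% of all miRNAs. The family arm miR-92b-3p of the same hairpin had a log2 fold change of 0.06 (SE 0.16, 95% interval −0.26 to 0.39, FDR 0.757). With RELA silenced the culture difference of miR-92b-5p was 1.80 (SE 0.39, FDR 0.000295) and that of miR-92b-3p −0.23 (SE 0.16, FDR 0.261). With RELB silenced the arms went different ways, miR-92b-5p being higher in spheroids by 1.88 on the log2 scale (SE 0.37, FDR 0.000123) and miR-92b-3p lower with a log2 fold change of −1.44 (SE 0.17, FDR 1.40e-08).

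At the miR-32 hairpin, the partner arm miR-32-3p was lower in spheroids. Adherent shNeg libraries held 27.5, 28.8, 20.4 and 23.9 CPM of it and spheroid shNeg libraries 0, 0.764, 1.54 and 4.21 CPM, which are counts of 0, 1, 3 and 6. Every spheroid shNeg library was thus far below every adherent one, and 3 of the 4 were at or under the floor of 3 counts. Between these groups 47.5% of all miRNAs did not overlap. The log2 fold change was −3.90 (SE 0.52, FDR 9.35e-08), and −5.02 without spheroid shNeg replicate 4, so that its size rests on a handful of counts. In shRELA cells, where adherent libraries held 41.0, 24.8, 15.6 and 41.5 CPM and spheroid libraries 1.87, 8.40, 6.27 and 4.94 CPM, miR-32-3p was also lower in spheroids (log2 fold change −2.52, SE 0.42, FDR 8.15e-06), with groups that did not overlap, as for 46.3% of all miRNAs.

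With RELB silenced the levels of miR-32-3p lay closer together, at 15.4, 16.6, 16.6 and 13.9 CPM in adherent and 3.16, 6.65, 6.04 and 9.46 CPM in spheroid libraries. These groups did not overlap, nor did those of 41.5% of all miRNAs, and the log2 fold change of −1.26 (SE 0.40, FDR 0.0115) missed the FDR threshold. Thus 2 of 4 members were called between the cultures in shNeg cells (1 higher and 1 lower), 2 of 4 in shRELA cells (1 higher and 1 lower) and 2 of 4 in shRELB cells (1 higher and 1 lower). In the same comparisons 42.2% (21.3% higher, 20.9% lower), 32.6% (16.8% higher, 15.8% lower) and 25% (13.6% higher, 11.4% lower) of all miRNAs tested were called, so calls between the cultures were common in the whole table.

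Knockdown changes of miR-32-3p were not called against shNeg in either culture. In adherent cells the log2 fold change was 0.29 (SE 0.36, FDR 0.710) for RELA and −0.68 (SE 0.36, FDR 0.245) for RELB. The adherent shRELB libraries nevertheless all lay under the adherent shNeg libraries, in a comparison in which 33.1% of all miRNAs did not overlap. In spheroids it was 1.67 (SE 0.59, FDR 0.0329) for RELA and 1.96 (SE 0.57, FDR 0.01004) for RELB, both against shNeg libraries with 6 counts or fewer. The RELB change was higher in spheroids than in adherent cells by 2.64 (SE 0.68, FDR 0.00576), but this call ended when any of these libraries was left out: replicates 1, 2 and 4 of adherent shRELB, replicate 1 of adherent shNeg, replicate 2 of spheroid shNeg and replicate 4 of spheroid shRELB, with values from 2.29 to 3.68 over all libraries left out.

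The family arm miR-32-5p was the scarcest member in adherent cells and was called in none of the 11 edgeR comparisons, in 4 of which its unadjusted p was under 0.05, and DESeq2 and limma also called it in 0. It stood at 5.97, 9.87, 5.38 and 3.61 CPM in adherent shNeg, 6.28, 5.91, 2.29 and 10.1 CPM in adherent shRELA and 2.51, 1.17, 1.71 and 3.62 CPM in adherent shRELB libraries. The shRELB libraries were low, the highest of them just above the lowest shNeg library, and the log2 fold change was −1.42 (SE 0.56, FDR 0.0933). Spheroid libraries held 0, 6.11, 3.08 and 4.91 CPM in shNeg, 2.34, 13.1, 2.69 and 2.66 CPM in shRELA and 3.69, 9.31, 8.37 and 3.44 CPM in shRELB cells. The 3 spheroid groups overlapped one another, and the log2 fold changes against shNeg were 0.53 (SE 0.67, FDR 0.582) for RELA and 0.82 (SE 0.65, FDR 0.361) for RELB. A library held 0 to 61 counts of it, and the standard errors of 0.52 to 0.67 of its changes with knockdown leave a change of 2-fold in at least 1 direction inside the 95% interval in all 4 comparisons with shNeg.

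The arms were next compared within each hairpin, which needs no scaling between libraries. In adherent cells the 3p arm was the more abundant in 12 of 12 libraries for both hairpins. The 5p arm made up 4.96%, 3.15%, 5.41% and 4.76% of the counts of the miR-92b hairpin in adherent shNeg libraries, and its group means were 6.12 ± 1.20% in adherent shRELA and 6.46 ± 0.78% in adherent shRELB (SD, n = 4). For miR-32 the 5p arm, which carries the family seed, made up 19.3 ± 5.21% in adherent shNeg, 16.2 ± 3.69% in adherent shRELA and 12.7 ± 6.17% in adherent shRELB.

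In spheroids the 5p share was higher for both hairpins and varied widely. For miR-92b it was 68.2% in spheroid shNeg replicate 1 (655 of 960 counts, 95% Wilson interval 65.2 to 71.1%) and 46.7%, 32.5% and 22.4% in the other 3 libraries. In spheroid shRELA it was 19.4%, 22.03%, 24.5% and 18.3%, and in spheroid shRELB 37.6%, 34.0%, 30.8% and 54.1%. Every spheroid library was above every adherent one, and the intervals of the spheroid shNeg libraries did not overlap one another. The intervals cover counting error only and treat each count as an independent molecule. Amplified reads need not be independent, so the intervals may be too narrow to show a difference beyond counting error.

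For miR-32 the spheroid shares rested on few counts. Replicate 1 of spheroid shNeg had 0 counts of either arm, and the other 3 libraries gave 8 of 9, 6 of 9 and 7 of 13 counts to the 5p arm, which are shares of 88.9%, 66.7% and 53.8%. Shares were 55.6%, 61.0%, 30% and 35% in spheroid shRELA and 53.8%, 58.3%, 58.1% and 26.7% in spheroid shRELB. The 5p arm was ahead in 8 spheroid libraries, the 3p arm in 3, and 1 had no counts.

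**Figure D3:**
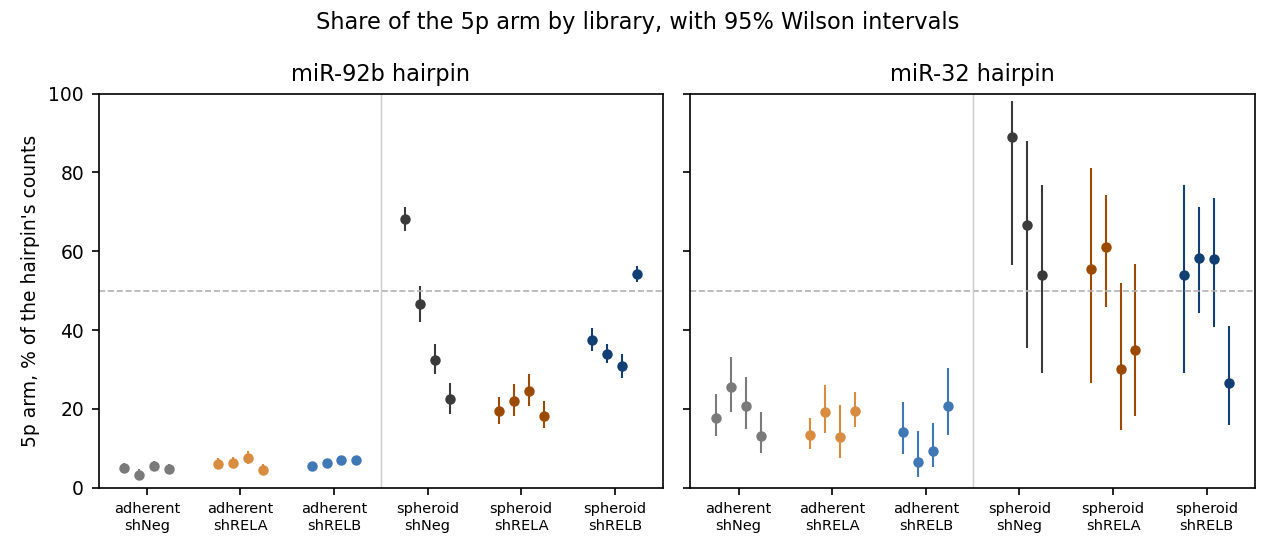
The 5p arm as a percent of the counts of its hairpin (vertical axis) in each library by group, with 95% Wilson intervals and a dashed line at equal arms. All adherent libraries lie under the line, miR-92b lies above it in 2 spheroid libraries, and miR-32 is missing for spheroid shNeg replicate 1, which had 0 counts.

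On the log2 scale, the ratio of 3p to 5p counts was tested with limma over the 214 hairpins with both arms measured. It was lower in spheroids for both hairpins in all 3 backgrounds. For miR-92b the change was −3.92 in shNeg (SE 0.41, FDR 7.57e-09), −2.04 in shRELA (FDR 0.000218) and −3.21 in shRELB cells (FDR 6.83e-07). For miR-32 it was −2.98 (SE 0.58, FDR 0.000145), −2.10 (FDR 0.00539) and −2.78 (FDR 0.000612). In all 6 of these the groups did not overlap, as for 40.2%, 43.9% and 39.7% of hairpins in shNeg, shRELA and shRELB cells, and the two-sided exact permutation p was 0.0286, the smallest that 4 against 4 libraries allow. For miR-32 in shNeg cells, however, spheroid replicate 1 had no count of either arm, so its ratio was set by the 0.5 added to each count. Without it the change was −3.28, 3 spheroid against 4 adherent libraries did not overlap, and the exact permutation p was 0.0286, again the smallest possible. The miR-32 call in shRELA cells ended when adherent shRELA replicate 1 or 3, or spheroid shRELA replicate 1 or 2, was left out (changes of −2.40 to −1.80). The calls of arm ratios were 35%, 25.2% and 24.3% of all hairpins in shNeg, shRELA and shRELB cells, and the change of miR-92b ranked 25, 60 and 24 and that of miR-32 ranked 43, 55 and 37 of 214 by size.

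In shNeg cells the shift towards the 5p arm went with different arms. At miR-92b the 5p arm was higher in spheroids and the change of the 3p arm was near 0, while at miR-32 the 3p arm was lower and the log2 fold change of the 5p arm was −0.80 (SE 0.63, FDR 0.274). In shRELB cells the arms of each hairpin went opposite ways, with 1.88 for miR-92b-5p and −1.44 for miR-92b-3p, both called, and 1.44 for miR-32-5p and −1.26 for miR-32-3p, neither called. With the knockdowns, limma called 0 of 2 arm ratios within a culture, against 0% and 0.467% of hairpins in adherent and 8.41% and 7.94% in spheroid cells for RELA and RELB, and 0.467% and 0.935% between shRELB and shRELA libraries. The largest of these 12 changes was that of miR-92b with RELA silenced in spheroids, a shift of 1.43 towards the 3p arm (FDR 0.0138, exact permutation p 0.0571). For adherent cells with RELB silenced, in which both miR-92b arms rose, the ratio changed by −0.54 (FDR 0.765, exact permutation p 0.0286) and the shares did not overlap, as for 17.8% of hairpins.

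Base composition moved with these shifts among the miRNAs whose sequence was matched. In both hairpins the 5p arm is the one richer in G and C. Of the 214 hairpins, 180 had a matched sequence for both arms, and the arms of 165 of these differ in G and C content. Among the 165, 106 (64.2%) shifted towards the richer arm in spheroid shNeg against adherent shNeg, 109 (66.1%) in shRELA and 107 (64.8%) in shRELB cells. Among single miRNAs, 795 of the 905 tested had a matched sequence. The 66 of them with at least 70% G and C, a class that holds miR-92b-5p, had a median log2 fold change of 3.20 in spheroid shNeg against adherent shNeg, beside 4.34 for miR-92b-5p. The 98 with under 40%, a class that holds both arms of miR-32, had a median of −2.11, beside −3.90 for miR-32-3p and −0.80 for miR-32-5p. The median over all 905 miRNAs was −0.26. The filter asked for 1 CPM in any 4 libraries, so a miRNA near 0 in one culture could pass through the other alone. Of the 238 miRNAs in the table with at least 70% G and C, 66 were tested. The medians of both classes, here and in shRELA and shRELB cells, may therefore be set partly by the filter.

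The same classes had medians of 1.71 and −1.64 in shRELA cells, beside 1.80 for miR-92b-5p, −2.52 for miR-32-3p and −0.28 for miR-32-5p. In shRELB cells they had medians of 1.76 and −0.75, beside 1.88 for miR-92b-5p and −1.26 for miR-32-3p, while miR-32-5p stood on the other side of its class at 1.44 (SE 0.59, FDR 0.0454). The summed share of the G- and C-rich miRNAs, in percent of a library's counts, was 0.146 to 0.160 in adherent shNeg, 0.151 to 0.211 in adherent shRELA, 0.197 to 0.245 in adherent shRELB and 0.477 to 1.16 in spheroid shNeg libraries, with the highest value in the same replicate 1 that had the highest miR-92b-5p level. It was 0.309 to 0.357 in spheroid shRELA and 0.318 to 0.529 in spheroid shRELB libraries. These shares include miR-92b-5p itself. Without it the spheroid shNeg libraries stood at 1.10, 0.732, 0.476 and 0.468, in order of replicate. The part of base composition in the changes of the 4 members was not tested.

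**Figure D4:**
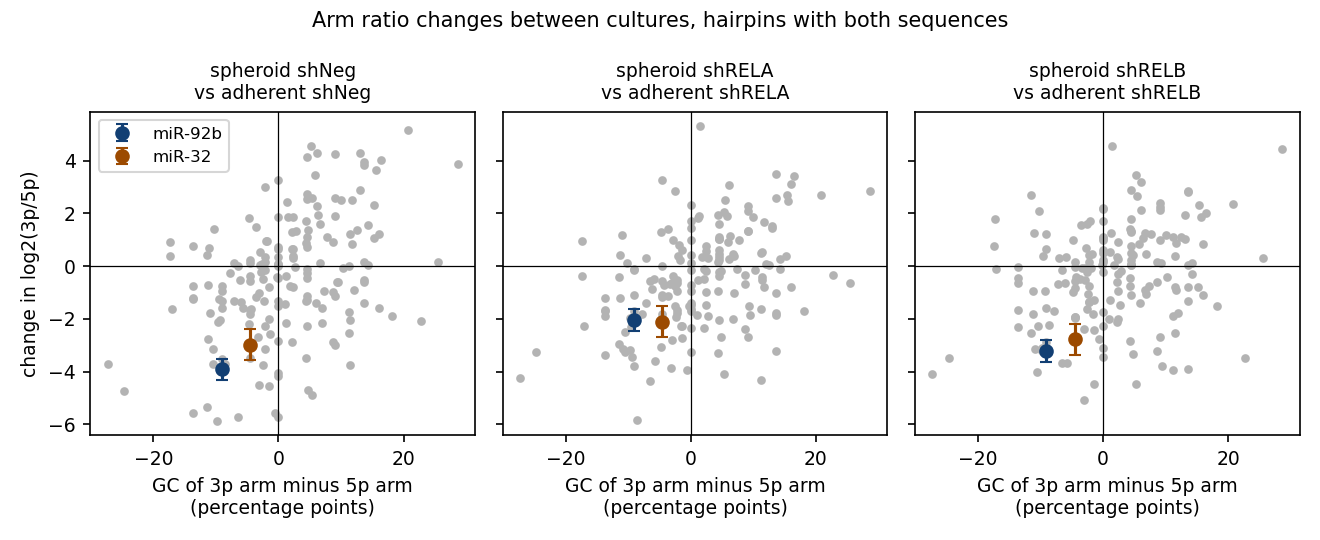
Change in log2(3p/5p) from adherent to spheroid culture (vertical axis) against the G and C content of the 3p arm minus that of the 5p arm in percentage points (horizontal axis) for hairpins with both sequences, with miR-92b and miR-32 in colour and bars of 1 standard error. Both hairpins lie in the lower left quadrant in all 3 panels, that is, they shifted towards a 5p arm richer in G and C.

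Within the seed family the members were minor. Of the counts of the 6 miRNAs with the seed, miR-92b-3p held 0.322 ± 0.018% in adherent shNeg and 0.361 ± 0.037% in spheroid shNeg (SD, n = 4), and miR-32-5p 0.01002 ± 0.0050% and 0.00602 ± 0.0050%, while miR-92a-3p alone held 80.7 ± 1.15% in adherent shNeg. In shRELB cells the share of miR-92b-3p was 1.48 ± 0.077% in adherent and 0.872 ± 0.061% in spheroid libraries, and in shRELA cells 0.256 ± 0.013% and 0.344 ± 0.048%. The miR-92a-3p counts were partly estimated, as they were not whole numbers in 14 libraries and miR-92a comes from 2 hairpins.

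Measured against miR-92a-3p in the same library, miR-92b-3p stood at 0.399 ± 0.017% in adherent shNeg and 1.77 ± 0.086% in adherent shRELB, and at 0.427 ± 0.038% in spheroid shNeg and 1.08 ± 0.048% in spheroid shRELB. The spheroid ratio also moved with miR-92a-3p itself, whose mean was 29570 CPM in spheroid shRELB and 50260 CPM in spheroid shNeg. The other tested members of the seed family, miR-92a-3p, miR-25-3p and miR-363-3p, gave 0 of 3 called with edgeR in adherent shRELB cells, against 7.07% of all miRNAs. Their log2 fold changes were −0.07 (SE 0.16, FDR 0.860), −0.50 (SE 0.18, FDR 0.0629) and 0.72 (SE 0.26, FDR 0.0656). Of these, miR-363-3p lay above shNeg in every shRELB library (119 to 127 against 63.8 to 86.4 CPM) and miR-25-3p below, where 33.1% of all miRNAs did not overlap. Between adherent shRELB and adherent shRELA libraries, miR-363-3p was called higher (log2 fold change 1.27, SE 0.27, FDR 0.000555), 1 of 3, against 6.63% of all miRNAs called higher. In spheroid shRELB cells 1 of the 3 was called, miR-363-3p, with a log2 fold change of 1.52 (SE 0.28, FDR 9.66e-05). Of all miRNAs 13.4% were called in that comparison, and 66 of 905 were called higher. There miR-92a-3p had −0.77 (SE 0.16, FDR 0.000368), under 2-fold. Between the cultures 1 of the 3 was called in shNeg cells, against 42.2% of all miRNAs (20.9% lower). It was miR-363-3p, lower in spheroids (log2 fold change −1.13, SE 0.28, FDR 0.000845). In shRELA and shRELB cells 0 of the 3 were called between the cultures, against 32.6% and 25% of all miRNAs. miR-367-3p had 0 counts in every library. Of the 4 tested partner arms of these relatives, miR-25-5p, miR-92a-1-5p, miR-92a-2-5p and miR-363-5p, 1 was called in 1 of the 11 comparisons. This was miR-92a-1-5p between the cultures in shRELA cells (log2 fold change 1.26, SE 0.21, FDR 1.19e-05), against 32.6% of all miRNAs (16.8% higher). In shNeg cells miR-25-5p (0.88, FDR 0.000314) and miR-92a-1-5p (0.78, FDR 0.00226) were higher in spheroids, but under 2-fold. There miR-92a-2-5p and miR-363-5p had FDRs of 0.551 and 0.699. The 3p to 5p ratio of miR-25 was called lower in shNeg spheroids (−1.30, SE 0.25), where 35% of hairpins were called. That of miR-363 was not called (−0.95, SE 0.85).

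The miRNAs whose levels ran most alike to each member over the 24 libraries, by Pearson's r on log2 CPM, differed between the arms of one hairpin. For miR-92b-3p they were miR-184 (r = 0.925), miR-2116-3p (0.851) and miR-1269a (0.756), and for miR-92b-5p they were miR-483-5p (0.950), miR-3187-3p (0.947) and miR-1224-5p (0.943), of which miR-3187-3p holds 75.0% and miR-1224-5p 68.4% G and C. For miR-32-3p they were miR-15b-3p (0.971), miR-454-3p (0.962) and miR-30e-3p (0.952), and for miR-32-5p miR-2355-3p (0.723), miR-188-5p (0.712) and miR-140-5p (0.688). Between the arms of one hairpin r was 0.285 for miR-92b and 0.455 for miR-32. The partner arms miR-92b-5p and miR-32-3p ran opposite to each other with r = −0.770. These values describe 24 libraries that share groups, culture and depth, and they carry no test.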

How the data were processed

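Small RNA was sequenced (miR-seq) in 24 libraries of OV90 cells. Per the labels and the methods, the authors trimmed reads with Cutadapt, quantified miRNAs with miRDeep2 against miRBase and GRCh38, and used edgeR. The deposited table is titled CPM, but its values are unscaled estimated counts: 3.04% of the nonzero values were not whole, none of them of the 4 members. Whether unique molecular identifiers were collapsed is not given in the sources used here. Counts were rounded to whole numbers and fitted with edgeR 4.0.16 (R 4.3.3; quasi-likelihood, TMM, all 6 groups in one model) for the 905 miRNAs that reached 1 CPM in 4 or more libraries. Arm ratios, log2 of counts plus 0.5, were tested with limma 3.58.1. Both used Benjamini-Hochberg FDR under 0.01 and over 2-fold. Both scripts were tested on simulated data. Alternatives were DESeq2 1.42.0, limma on log2(CPM + 1), other scalings, filters and thresholds, the compared groups alone, a replicate block and leaving out each library. The exact permutation test of the miR-32 arm ratio without the library that had no count of either arm was added after seeing the data. The members, marker lists and family list were chosen with earlier results of these data known, so the tests are not independent evidence for them. All 4 members are named, the 3 miRNAs most alike to each by r, and all with the family seed.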

Additional observations from a re-analysis of the deposited data

Results flagged for a closer look

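In 3 of 35 sets of 4 libraries, 1 library lay far from the other 3 by Dixon's criterion, which chance gives for about 1 in 20 sets. These were miR-92b-5p in spheroid shRELA, where replicate 4 stood at 34.6 CPM under the other 3, miR-32-5p in spheroid shRELA, where replicate 2 stood at 13.1 CPM above the others, and the 5p share of miR-32 in spheroid shRELB, which was 26.7% in replicate 4 and higher in the others.

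In 4 cases the change with a knockdown differed between spheroid and adherent cells by edgeR's interaction test. The log2 change with RELA silenced differed by −2.54 for miR-92b-5p (spheroid minus adherent). With RELB silenced it differed by −1.50 for miR-92b-3p, by −2.47 for miR-92b-5p and by 2.64 for miR-32-3p. The miR-92b-5p differences rest partly on the spread of the spheroid shNeg libraries (68.8 to 480.4 CPM), and the miR-32-3p difference on spheroid shNeg libraries with 0 to 6 counts.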

How the results depend on the processing

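Of 74 results, 37 kept their direction and their side of the threshold under every alternative. The 37 with a change include 12 seed family shares, which have neither and were counted as changed when they moved by more than their SD. These 12 moved only when miR-92a-3p, which held most of the family's counts, was taken out of the family, as removing most of a denominator must do. The log2 fold changes of the adherent RELB calls ranged over all alternatives from 1.99 to 2.20 for miR-92b-3p and from 2.41 to 2.72 for miR-92b-5p, and were called each time. That of miR-92b-5p with RELA silenced in spheroids ranged from −2.54 to −1.33, and those between the cultures in shNeg cells from 3.46 to 4.79 for miR-92b-5p and from −5.02 to −3.48 for miR-32-3p. The cause of the changes below was not tested.

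Directions turned for miR-92b-5p with RELB in spheroids (DESeq2's size factors in edgeR −0.0195, library totals −0.12, mean of at least 10 CPM −0.16, DESeq2 −0.0229), for miR-32-5p with RELA in adherent cells (library totals −0.17, no filter −0.12, limma −0.0701, compared groups alone −0.059) and for miR-92b-3p between shNeg cultures (no filter −0.17). Calls were lost for the RELB interaction of miR-32-3p with library totals (2.25) and of miR-92b-5p with the compared groups alone (−2.45).

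Calls were gained as follows. For miR-32-3p with RELB in spheroids they came without a filter (1.98), with the 10 CPM filter (1.78), DESeq2 (1.86), limma (1.66) and FDR under 0.05 without a fold threshold (1.96). For miR-32-3p between shRELB cultures they came with no filter (−1.43), the 10 CPM filter (−1.16), DESeq2 (−1.27), the compared groups alone (−1.10), FDR under 0.05 without a fold threshold (−1.26) and without spheroid shNeg replicate 1, which that comparison does not use (−1.24). Between adherent shRELB and shRELA, miR-32-3p was called by DESeq2 (−1.03) and at FDR under 0.05 without a fold threshold (−0.98). With the compared groups alone miR-32-5p was called for adherent RELB (−1.49), adherent shRELB against shRELA (−1.36) and between shRELB cultures (1.56, and 1.44 at FDR under 0.05 without a fold threshold). The FDR threshold of 0.05 without a fold threshold also called miR-32-3p with RELA (1.67) in spheroids. It called miR-92b-3p with RELB in spheroids (0.57) and between spheroid shRELB and shRELA (0.94; 1.07 with library totals), both of which had an FDR under 0.01 already, so that the dropped fold threshold made these calls. The miR-92b arm ratio was called for RELA in spheroids with at least 10 counts of the lower arm (1.43) and passed 0.05 by exact permutation between spheroid shRELB and shRELA (−1.26).

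Leaving out 1 library changed the direction or the call within these ranges: for miR-32-5p, adherent RELA −0.33 to 0.29, spheroid RELA −0.44 to 0.88, shRELA cultures −1.25 to 0.0513, spheroid shRELB against shRELA −0.0285 to 1.26 and RELA interaction −0.45 to 0.98; for miR-32-3p, spheroid RELA 1.30 to 2.57, spheroid RELB 1.61 to 2.83, shRELB cultures −1.60 to −1.06, spheroid shRELB against shRELA −0.0111 to 0.56 and RELB interaction 2.29 to 3.68. The RELB interaction was not called without adherent shNeg 1, adherent shRELB 1, 2 or 4, spheroid shNeg 2 or spheroid shRELB 4. For miR-92b-5p with RELB in spheroids the range was −0.33 to 0.9965, and for miR-92b-3p it was −0.18 to 0.11 between shNeg cultures and 0.86 to 1.10 between spheroid shRELB and shRELA. Arm ratios ranged for miR-92b from 0.90 to 1.86 with RELA in spheroids (called without spheroid shNeg 4), −0.36 to 0.61 with RELB in spheroids and −0.21 to 0.0437 between adherent shRELB and shRELA, and for miR-32 from −2.40 to −1.80 between shRELA cultures (not called without adherent shRELA 1 or 3 or spheroid shRELA 1 or 2) and −0.65 to 0.0946 between spheroid shRELB and shRELA.

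Without miR-92a-3p, the share of the seed family was 1.68, 1.20 and 9.17% in adherent and 2.37, 1.62 and 4.77% in spheroid shNeg, shRELA and shRELB for miR-92b-3p, and 0.0519, 0.0360 and 0.0241%, then 0.0369, 0.0527 and 0.0949%, for miR-32-5p. Replicate numbers were not used to pair samples in the main fit. Correlations of same-numbered libraries ran from −0.494 to 0.345, which cannot show whether such libraries shared a batch. A replicate block changed no call of a member, and moved the calls between shNeg cultures from 382 to 358. miR-32-5p, with 0 to 61 counts a library, had no value under the 10 CPM filter. Library totals without TMM moved the median log2 fold change of all miRNAs between shNeg cultures from −0.26 to 0.17. With the compared groups alone, the calls over all miRNAs went from 34 to 54 (RELA) and 64 to 117 (RELB) in adherent cells, from 137 to 66 and 121 to 41 in spheroids, and from 98 to 150 between adherent shRELB and shRELA. FDR under 0.05 without a fold threshold gave 71 to 538 calls.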
